A study of Mus musculus with 39 samples.

Results

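The genes described here are the phase II conjugating transferases of the mouse: the glutathione S-transferases (Gst and Mgst), the UDP-glucuronosyltransferases (Ugt) and the cytosolic sulfotransferases (Sult). They were chosen by gene symbol alone, which gave 49 of the 20868 probes on the array, from 46 genes. By family these were 20 probes of cytosolic glutathione transferases, 4 probes of 3 microsomal ones, 13 probes of 11 glucuronosyltransferase genes and 12 probes of sulfotransferases. For 43 of the 49 probes, from 41 genes, the signal exceeded the negative controls in 4 or more arrays of some group. The other 6 were probes for Gstt4, Sult1b1, Sult3a1, Ugt2b1, Ugt2b37 and Ugt8a, each above the controls in 5 to 15 of the 39 arrays, and they were not tested.

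RNA from the left lung of 39 male C57B1/CBA mice, a hybrid strain, was hybridized to 2-colour oligonucleotide arrays, 1 mouse per array, to ask how mainstream tobacco smoke (MTS) alters lung gene expression and what remains after exposure ends. The mice were 8 to 10 weeks old at the start, and smoke mice received nose-only MTS from 2 reference cigarettes daily on 5 days of each week, over 6 or 12 weeks. Sham mice were placed in the same restrainers without smoke, so every group shared the restraint. The 4 groups 6 week sham, 6 week smoke, 12 week sham and 12 week smoke were killed 3 h after the last cigarette. For the 4 groups 6 week break sham, 6 week smoke and break, 12 week break sham and 12 week smoke and break, the study's methods place death after a further 6 weeks, while the sample labels give 3 h after exposure for them too; the methods were followed. Each group held 5 mice with an array, except 12 week smoke with 4. The methods describe 5 mice in every group and the removal of 1 outlier array with high background. By the methods, mice of a break group were 6 weeks older at death than those of the matching group without a break. RNA came from the upper piece of the left lobe, with no cell type isolated. Values are log2 ratios of lung to a universal mouse reference RNA run on the same array. Such a ratio sets a gene against its own level in the reference, so that levels of different genes cannot be ranked from it. In whole tissue, more cells of a type and more RNA per cell cannot be told apart.

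Phase II enzymes join a small polar group to a foreign or endogenous compound, which makes most products easier to excrete. Cytosolic glutathione transferases attach the tripeptide glutathione to electrophiles, among them aldehydes and epoxides formed from smoke. The microsomal enzymes are membrane proteins of a separate family that share part of this chemistry. Glucuronosyltransferases add glucuronic acid from UDP-glucuronate in the endoplasmic reticulum, mainly in liver, gut and kidney, and sulfotransferases add sulfate from the donor PAPS to phenols, steroids and alcohols. Several of these genes are known targets of Nrf2, which binds antioxidant response elements, or of the aryl hydrocarbon receptor (AhR), which binds xenobiotic response elements. Many of the genes lie next to each other: of the 46 member genes, 31 stand in 8 runs of neighbouring family genes among RefSeq protein-coding genes, such as 7 Gstm genes in 1 run, 4 Gstt genes in another, and Gsta4 beside Gsta1.

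Start regions of the 2 genes that passed the test in a smoke comparison, Gsta1 and Mgst3, are shown here because both hold the core of the xenobiotic response element. Each covers 120 bases before the RefSeq start site and 10 bases from it on, 5′ to 3′ on the gene's own strand (build GRCm38.p6), with the core GCGTG in capitals. Gsta1 is at chr9:78230549-78230678 on the plus strand and Mgst3 at chr1:167393832-167393961 on the minus strand.
Gsta1: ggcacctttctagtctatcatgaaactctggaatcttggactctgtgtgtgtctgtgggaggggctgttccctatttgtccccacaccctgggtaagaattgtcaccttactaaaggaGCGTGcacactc
Mgst3: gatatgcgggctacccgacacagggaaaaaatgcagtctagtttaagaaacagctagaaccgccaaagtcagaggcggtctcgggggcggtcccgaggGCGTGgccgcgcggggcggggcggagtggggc
RefSeq windows from 250 bases before to 50 after a start were at hand for 41 of the 46 genes, 53 windows in all. Searched on both strands, GCGTG occurred in 12 of the 53 windows (22.6%) and in 32.4% of all 32851 RefSeq windows. The antioxidant response element core TGACNNNGC, with N for any base, occurred in 4 of the 53 (7.55%) and in 12.4% of all windows. Neither core was more frequent in the member windows than among all windows. A match of letters is a description and not a binding site, and windows for Gstt2, Gsta4, Sult4a1, Ugt1a6b and Ugt3a2 were not analysed here.

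Median Cy5 signal ran from 268 to 1530 per array, 2.2 to 8.94 times the local background, and type II cell markers were high in all 39 arrays, as for lung (mean log2 ratio 2.38 to 3.95 over 7 probes). In 2 arrays of 6 week sham the values stood apart, and both were kept under their label. Replicate 2 had a Cyp1a1 value of 6.46, against 1.25 to 2.81 in the other 4 sham arrays and 5.07 to 8.06 in 6 week smoke, and its Cyp1b1 value of 2.00 also lay in the range of smoke-exposed mice. Replicate 1 had the highest value of all 39 arrays in 15 of the 43 member probes. For several members and for the family medians at 6 weeks, values are given with and without these arrays. Leaving out both at once was chosen after the values were seen, so a pass in that fit is not an independent test. Other values that use 6 week sham include both arrays unless stated.

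Few of the conjugating transferases passed the test with smoke. In 6 week smoke against 6 week sham, 1 of the 43 probes passed an adjusted p of 0.05 (limma's moderated test with Benjamini-Hochberg adjustment over 17560 probes), where 0.0626% of all probes did. In 12 week smoke against 12 week sham it was again 1 of 43, against 0.433% of all probes, and in the mean of both durations it was 2 of 43, against 1.22%. The probes called were Mgst3 (A_51_P215077) at 6 weeks, Gsta1 at 12 weeks and both in the mean, all higher with smoke. At an unadjusted p under 0.05 there were 6, 7 and 12 of the 43 probes, against 8.41%, 9.37% and 12.2% of all probes. In these 3 comparisons no glucuronosyltransferase and no sulfotransferase probe was called.

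The families differed in how far the data could resolve a change. The median within-group SD was 0.256 for the 19 cytosolic glutathione transferase probes and 0.231 for the 4 microsomal ones, near the 0.273 of all probes tested. It was 0.378 for the 10 sulfotransferase probes and 0.584 for the 10 glucuronosyltransferase probes. The half-width of the 95% confidence interval of the 6 week smoke change was accordingly 0.29 at the median for cytosolic and 0.26 for microsomal glutathione transferases, 0.45 for sulfotransferases and 0.74 for glucuronosyltransferases. Signal differed too: 15 of the 19 cytosolic and all 4 microsomal probes were above the controls in all 39 arrays, against 4 of 10 sulfotransferase and 2 of 10 glucuronosyltransferase probes.

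At 12 weeks the median change with smoke was 0.00039 for the cytosolic probes (10 higher, 9 lower), 0.10 for the microsomal ones (3 higher, 1 lower), -0.032 for the glucuronosyltransferases (3 higher, 7 lower) and 0.11 for the sulfotransferases (7 higher, 3 lower), beside 0.0054 over all probes. At 6 weeks the medians were 0.025 (12 higher, 7 lower), 0.32 (4 higher), -0.50 (1 higher, 9 lower) and 0.08 (6 higher, 4 lower), beside 0.012 over all probes. The low glucuronosyltransferase median rested on 1 array. Without 6 week sham replicate 1 it was 0.091, with 7 probes higher and 3 lower, and without replicate 2 it was -0.56. For the cytosolic and sulfo enzymes leaving out replicate 1 gave medians of 0.086 and 0.011, and for the microsomal enzymes 0.32 again, with 3 of the 4 higher. These counts describe the families, and a difference between families was not tested.

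**Figure D1:**
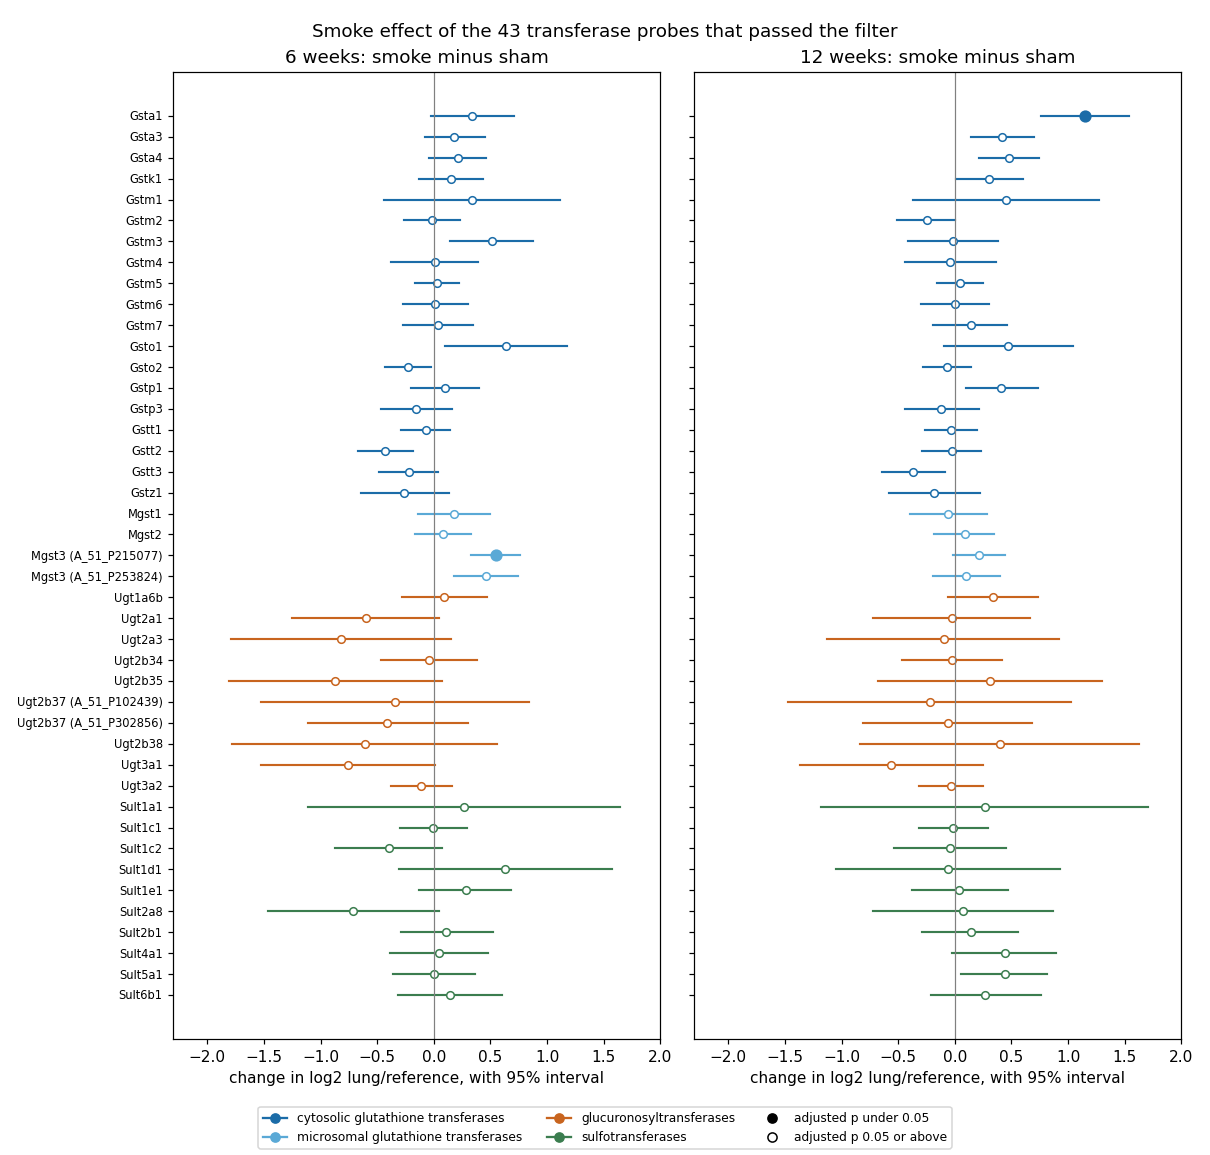
Log2 change with smoke (horizontal axis, smoke minus sham) for each of the 43 probes, by family, at 6 weeks (left) and 12 weeks (right), with bars for the 95% confidence interval and filled points where the adjusted p was under 0.05. Mgst3 is filled at 6 weeks and Gsta1 at 12 weeks, and the intervals of most Ugt probes and some Sult probes are much wider than those of the glutathione transferases.

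Among the cytosolic glutathione transferases, the alpha class stood on the higher side. Alpha enzymes act on lipid peroxidation products, and in the mouse Gsta1 is known as an inducible member. Gsta1 read 0.61, 0.85, 0.29, 0.72 and 0.12 in the 5 mice of 12 week sham, and 1.74, 1.73, 1.47 and 1.47 in the 4 mice of 12 week smoke. All 4 smoke values lay above all 5 sham values. The difference was 1.15 on the log2 scale (SE 0.19, 95% confidence interval 0.76 to 1.54), or 2.22-fold, with a limma adjusted p of 0.000995. It was higher in all 4 label runs that held both groups, by 0.88 to 1.35, where a label run is a sequence of arrays with consecutive exposure-date labels. Gsta1 and Gsta2 are close paralogs, and whether the probe separates them was not tested.

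At 6 weeks the Gsta1 groups overlapped. The 6 week sham mice read 1.78, 1.90, 0.48, 0.45 and 0.81, and the 6 week smoke mice 1.17, 1.32, 1.25, 1.94 and 1.21. The 2 highest sham values belonged to the 2 arrays that stood apart, and the other 3 were below every smoke value. The change was 0.34 (SE 0.18, 95% confidence interval -0.027 to 0.71, adjusted p = 0.632). Without replicate 1 it was 0.52 (adjusted p = 0.502), without replicate 2 it was 0.49 (adjusted p = 0.357), and without both it was 0.76 and passed (limma adjusted p = 0.0209). The 12 week effect exceeded the 6 week effect by 0.81 (SE 0.26), with an adjusted p of 0.971, so that the durations were not shown to differ. Over both durations Gsta1 rose by 0.75 (SE 0.13), or 1.68-fold, with a limma adjusted p of 0.00172.

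Gsta4, which conjugates 4-hydroxynonenal, and Gsta3, an alpha enzyme known to act on aflatoxin epoxide, did not pass. Gsta4 read -0.19, 0.06, -0.17, -0.01 and -0.42 in 12 week sham and 0.14, 0.31, 0.36 and 0.22 in 12 week smoke, again with no overlap. The difference was 0.48 (SE 0.13, adjusted p = 0.119), it was higher in 4 of 4 label runs, by 0.25 to 0.64, and the mean over both durations was 0.34 (SE 0.091, adjusted p = 0.0529). Without 6 week sham replicate 1 that mean was 0.34 (adjusted p = 0.0827), without replicate 2 it was 0.39 and passed (limma adjusted p = 0.00953), and without both it was 0.40 and passed (limma adjusted p = 0.0156). It also passed without 6 week smoke replicate 1, 6 week smoke and break replicate 5, 12 week break sham replicate 5 or 12 week smoke and break replicate 5 (0.33 to 0.38). Gsta3 differed by 0.42 at 12 weeks (SE 0.14, adjusted p = 0.23) and by 0.18 at 6 weeks. All 3 alpha probes were thus above 0 at 12 weeks, with a median of 0.48. Gsta1 and Gsta4 were the 2 member probes whose smoke values all exceeded the sham values at 12 weeks, where 1.99% of all probes did so.

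**Figure D2:**
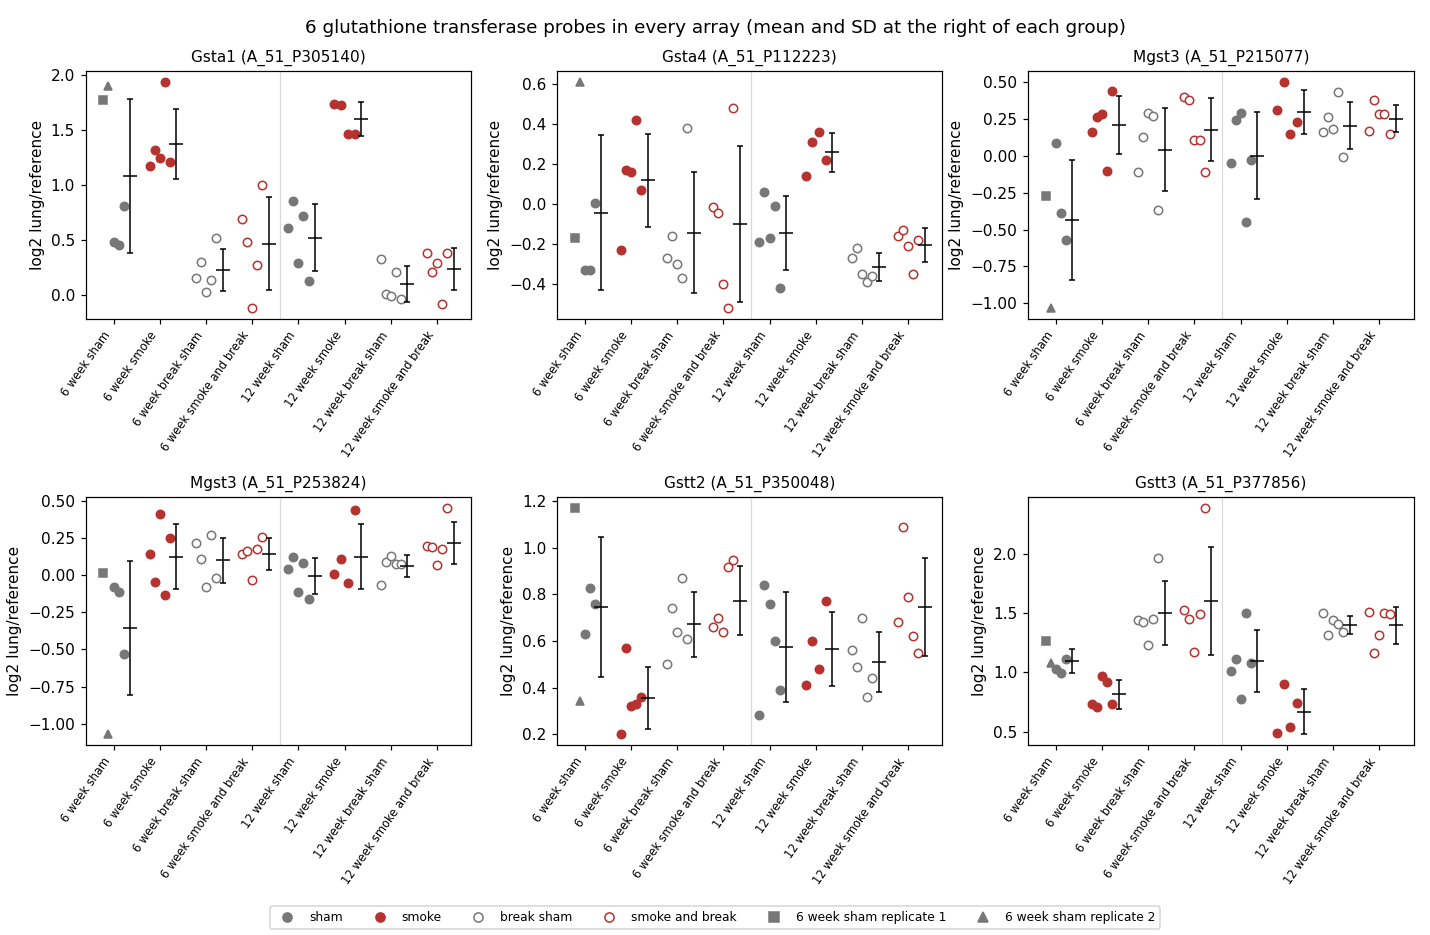
Log2 ratio of lung to reference (vertical axis) in every array for Gsta1, Gsta4, both Mgst3 probes, Gstt2 and Gstt3, by group, with the mean and SD of each group; sham is grey, smoke red, break groups open, and the square and triangle are 6 week sham replicates 1 and 2. Gsta1 in 12 week smoke sits between 1.47 and 1.74, above the 12 week sham mice at 0.12 to 0.85, and the break groups of Gstt3 sit above the groups without a break.

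The theta class stood on the lower side. Theta enzymes act on small halogenated compounds and sulfate esters. Gstt2 read 1.17, 0.34, 0.63, 0.83 and 0.76 in 6 week sham and 0.20, 0.57, 0.32, 0.33 and 0.36 in 6 week smoke. The groups overlapped through sham replicate 2, the lowest sham value. The difference was -0.43 (SE 0.12, 95% confidence interval -0.67 to -0.18), the adjusted p was 0.278, and smoke was lower in all 4 label runs that held both groups. Without replicate 1 it was -0.29 (adjusted p = 0.615), without replicate 2 it was -0.52 (adjusted p = 0.0549) and without both it was -0.38 (adjusted p = 0.323). At 12 weeks Gstt2 read 0.28, 0.84, 0.76, 0.60 and 0.39 in sham and 0.41, 0.60, 0.48 and 0.77 in smoke. That difference was -0.028 (SE 0.13, adjusted p = 0.979), and the 2 durations differed by 0.40 (adjusted p = 0.971).

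Gstt3 was lower with smoke at both durations without passing the adjusted threshold. In 6 week sham it read 1.26, 1.08, 1.03, 0.99 and 1.11, and in 6 week smoke 0.73, 0.71, 0.97, 0.92 and 0.73. Every smoke value was below every sham value, which was so for 0.325% of all probes at 6 weeks and for no other member. In 12 week sham it read 1.01, 1.11, 0.77, 1.50 and 1.08, and in 12 week smoke 0.49, 0.90, 0.54 and 0.74, with some overlap. The fitted changes were -0.22 (SE 0.13, adjusted p = 0.69) and -0.37 (SE 0.13, adjusted p = 0.324), and the mean was -0.29 (SE 0.093, adjusted p = 0.125). Without 6 week smoke and break replicate 5, the mean was -0.31 and passed (limma adjusted p = 0.031). Smoke was lower in 4 of 4 label runs at each duration. The third theta probe, Gstt1, gave -0.073 and -0.034.

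Of the mu class, with 7 probes and broad activity toward epoxides and quinones, none passed. Gstm3 ranged from 1.28 to 1.70 in 6 week sham, with all 6 week smoke values at 1.83 to 2.36 and no overlap (0.524% of all probes were so separated and higher). Its change was 0.51 (SE 0.18, adjusted p = 0.398) at 6 weeks and -0.013 (SE 0.19, adjusted p = 0.994) at 12 weeks. For Gstm1 the scanner set a limit: the lung signal reached 65535, the highest value it can record, in 32 of 39 arrays, and in every array of 6 week smoke, 12 week smoke and 6 week smoke and break. The Gstm1 spot was saturated there, so its values are bounds and no fold is given. It stands in the family counts, the family medians, the count of probes tested and the plots at its recorded value. Gstm2, Gstm4, Gstm5, Gstm6 and Gstm7 lay between -0.25 and 0.14 in both smoke comparisons.

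The remaining cytosolic classes were mixed. Gsto1, an omega enzyme that reduces dehydroascorbate, differed by 0.64 at 6 weeks (SE 0.26, adjusted p = 0.489) and by 0.47 at 12 weeks (SE 0.28, adjusted p = 0.649), while its neighbour Gsto2 gave -0.23 and -0.073. Gstp1, the pi enzyme, differed by 0.41 at 12 weeks (SE 0.15, adjusted p = 0.335) and by 0.10 at 6 weeks, and Gstp3 by -0.12 and -0.16. Gstk1, the kappa enzyme of mitochondria and peroxisomes, gave 0.30 at 12 weeks (adjusted p = 0.513). Gstz1, which isomerizes maleylacetoacetate in tyrosine breakdown, gave -0.18 (adjusted p = 0.877).

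Of the microsomal enzymes, Mgst3, which reduces lipid hydroperoxides and conjugates leukotriene A4, was the member called at 6 weeks. Its probe A_51_P215077 read -0.27, -1.03, 0.084, -0.39 and -0.57 in 6 week sham, and 0.16, 0.26, 0.28, -0.10 and 0.44 in 6 week smoke. Sham replicate 3 lay within the smoke values, and the other 4 sham mice lay below all of them. The change was 0.55 (SE 0.11, 95% confidence interval 0.33 to 0.76), or 1.46-fold, with a limma adjusted p of 0.0289, and smoke was higher in 4 of 4 label runs, by 0.35 to 0.70. Without replicate 1 it was 0.57 (adjusted p = 0.0611) and without replicate 2 it was 0.46 (limma adjusted p = 0.0452), and without both it was 0.45 and did not pass (adjusted p = 0.148). Over single arrays left out the change stayed between 0.46 and 0.63, and the adjusted p, from 0.00603 to 0.133, was above 0.05 without 6 week sham replicates 1 or 4 and without 6 week smoke replicates 1, 3, 4 or 5.

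The 6 week sham mice were the group that stood low for this probe. The mean was -0.44 (SD 0.41, n = 5) there, against 0.0014 (SD 0.30, n = 5) in 12 week sham, 0.043 (SD 0.28, n = 5) in 6 week break sham and 0.20 (SD 0.16, n = 5) in 12 week break sham. The smoke groups were at 0.21 (SD 0.20, n = 5) at 6 weeks and 0.30 (SD 0.15, n = 4) at 12 weeks. The 12 week sham mice read -0.046, 0.24, 0.29, -0.45 and -0.028, and the 12 week smoke mice 0.31, 0.50, 0.15 and 0.23. Those groups overlapped, with a change of 0.21 (SE 0.11, adjusted p = 0.575). Over both durations this probe rose by 0.38 (SE 0.077), with a limma adjusted p of 0.008, and by 0.34 without 6 week sham replicates 1 and 2 (limma adjusted p = 0.0173).

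The second Mgst3 probe, A_51_P253824, pointed the same way without passing. It read 0.015, -1.07, -0.079, -0.11 and -0.53 in 6 week sham and 0.14, -0.047, 0.41, -0.13 and 0.25 in 6 week smoke, a change of 0.46 (SE 0.14, adjusted p = 0.278). At 12 weeks it gave 0.10 (SE 0.14, adjusted p = 0.911). Over both durations it gave 0.28 and did not pass (limma adjusted p = 0.191). Mgst2, a leukotriene C4-forming enzyme, gave 0.079 and 0.087, with standard errors of 0.12 and 0.13. Mgst1, abundant in the endoplasmic reticulum and outer mitochondrial membrane, gave 0.18 (SE 0.16) and -0.062 (SE 0.17).

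Scanner saturation also touched 6 other members. Mgst1 was at the limit in 9 arrays, which were all 8 arrays of label run 1 and 6 week sham replicate 3, and Gsta3 in 6, all of run 1. Gstm2 was at the limit in 5 arrays, Gstm3 in 3 and Ugt1a6b in 1, all of run 1. In the reference channel Gsto1 was at the limit in 2 arrays and Ugt1a6b in 1. In run 1 the Mgst1 median was 1.38 against 2.45 in the other 31 arrays, the Gsta3 median 4.16 against 4.49 and the Gstm1 median 0.37 against 1.76. The run took 79.3% of the variance of Mgst1. The model held the run as a block, but a saturated lung signal understates the ratio, and a saturated reference signal overstates it.

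**Figure D3:**
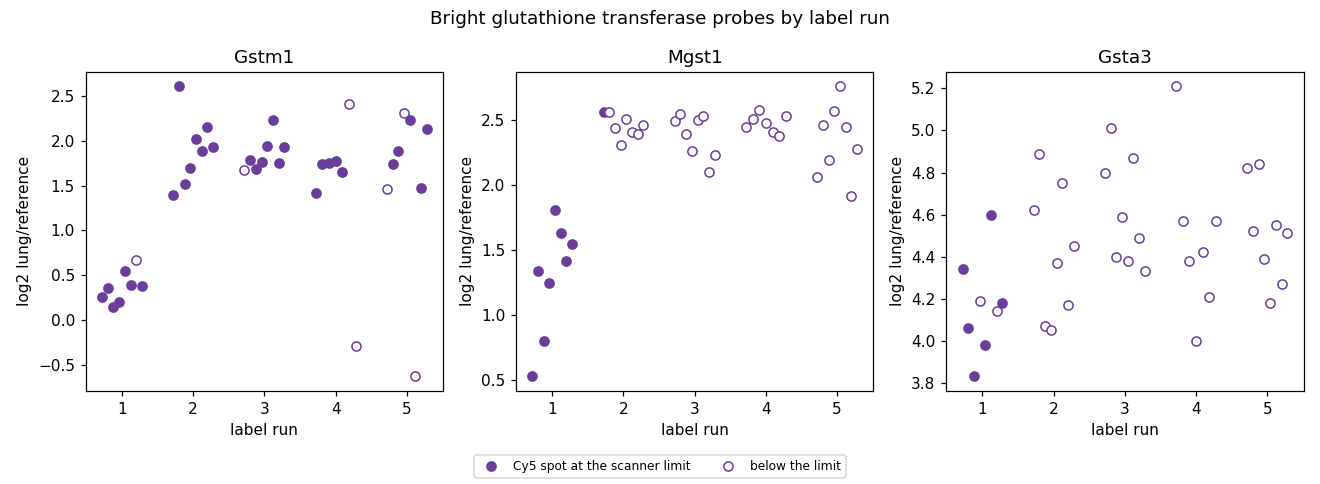
Log2 ratio of lung to reference (vertical axis) by label run (horizontal axis, in the sequence of exposure-date labels) for Gstm1, Mgst1 and Gsta3, 1 point per array, filled where the lung signal was at the scanner limit. All 8 arrays of run 1 are filled for Mgst1, and they lie below the other runs.

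The glucuronosyltransferases had the widest median spread of the 4 families, and 1 mouse held a large share of it. Their median within-group SD fell from 0.584 to 0.420 without 6 week sham replicate 1, and that array held 20.3% to 75.7% of the within-group sum of squares of a probe, with a median of 46.2%. Replicate 1 of 6 week sham had the highest value of all 39 arrays in all 10 glucuronosyltransferase probes and in 2 sulfotransferase probes, and 8 member probes there exceeded their own median by over 2. Ugt2b35 read 4.39 in that array and 0.43, 0.35, 0.35 and -0.59 in the other 6 week sham mice, and -0.37, 0.26, 0.69, 0.087 and 0.27 in 6 week smoke. Apart from that array the groups overlapped fully. Ugt2b38 read 4.93, 1.15, 0.64, 0.24 and 0.12 in 6 week sham and 1.79, 0.69, 1.01, 0.39 and 0.39 in 6 week smoke. Both belong to the Ugt2b group, which glucuronidates steroids and drugs and is strongest in liver.

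The fitted 6 week changes of these genes were negative with wide intervals, and they shrank without that array. Ugt2b35 gave -0.87 (95% confidence interval -1.81 to 0.071, adjusted p = 0.632), and -0.024 without it. Ugt2a3 gave -0.82 (SE 0.48, adjusted p = 0.692), and 0.070 without it. Ugt2b38 gave -0.61 (SE 0.57, adjusted p = 0.838), and 0.28 without it. Ugt3a1, which uses N-acetylglucosamine rather than glucuronic acid, gave -0.76 (SE 0.38, adjusted p = 0.602), and -0.31 without it. The 12 week values were 0.31 for Ugt2b35 (SE 0.48), -0.10 for Ugt2a3 (SE 0.50), 0.40 for Ugt2b38 (SE 0.60) and -0.56 for Ugt3a1 (SE 0.40, adjusted p = 0.733).

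Genes that define liver cells were high in the same array. Of 6 hepatocyte genes, 5 were on the array and 4 passed the filter, Alb, Apoa1, Apoa2 and Fgb, above the controls in 38, 19, 29 and 38 arrays; Ttr did not pass. Their mean log2 ratio was 3.11 in 6 week sham replicate 1, 3.17 in 6 week break sham replicate 4 and 3.58 in 12 week smoke and break replicate 3, and at most 2.17 in the rest. In 6 week sham it ran from 0.14 to 3.11, with 6 week smoke at 0.40 to 1.79, and in 12 week sham from 0.022 to 0.86, with 12 week smoke at -0.25 to 1.61. In the other 2 arrays with high hepatocyte genes Ugt2b38 was 2.98 and 2.40 and Ugt2b37 (A_51_P102439) was 2.73 and 2.56. Other members were not as high there as in 6 week sham replicate 1: Ugt2b35 was 0.67 and 0.27, Ugt2a3 was 0.98 and 0.65, and Ugt2b34 was 0.20 and 0.28, against 4.39, 4.30 and 1.71. Their part in the glucuronosyltransferase values was not tested.

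**Figure D4:**
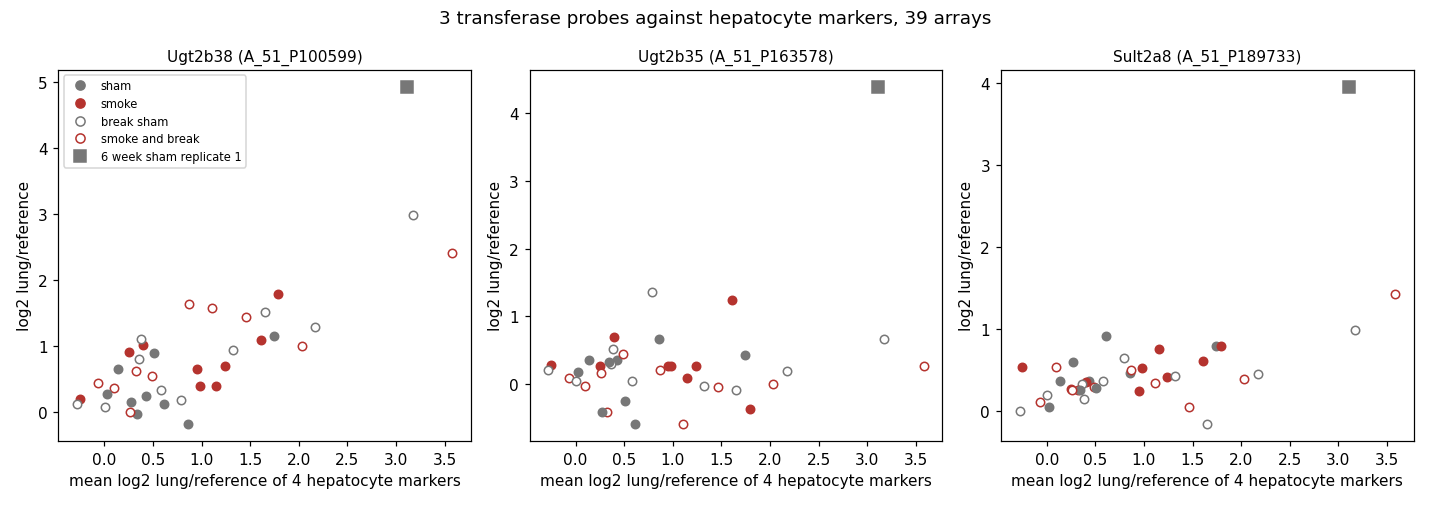
Log2 ratio of lung to reference of Ugt2b38, Ugt2b35 and Sult2a8 (vertical axis) against the mean log2 ratio of the 4 hepatocyte genes (horizontal axis), 1 point for each of the 39 arrays. Replicate 1 of 6 week sham is at 3.11 on the horizontal axis and is the highest array for all 3 genes, while the other 2 arrays above 3 on that axis are at 2.98 and 2.40 for Ugt2b38 but at 0.67 and 0.27 for Ugt2b35 and 0.98 and 1.42 for Sult2a8.

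Ugt1a6b was the glucuronosyltransferase closest to the known AhR-driven genes, since the Ugt1a6 enzymes conjugate phenols and are classical AhR targets. It gave 0.093 (SE 0.18, adjusted p = 0.942) at 6 weeks and 0.34 (SE 0.19, adjusted p = 0.64) at 12 weeks. The 95% confidence interval at 12 weeks, -0.057 to 0.73, included 0. The mean over both durations was 0.22 (SE 0.13, adjusted p = 0.564). With 6 week sham replicates 1 and 2 both left out it was 0.43, and it passed (limma adjusted p = 0.0107). The AhR target Cyp1a1 on the same arrays was higher by 3.95 (15.5-fold, limma adjusted p = 0.00104) at 6 weeks and by 4.88 (29.5-fold, limma adjusted p = 2.7e-05) at 12 weeks. The 6 week value includes 6 week sham replicate 2, whose Cyp1a1 value lay in the range of 6 week smoke. Ugt3a2, Ugt2b34, Ugt2a1 and both tested Ugt2b37 probes lay between -0.22 and -0.025 at 12 weeks.

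Among the sulfotransferases no probe passed, and some varied between mice far more than with smoke. Sult1a1, the main phenol sulfotransferase, read 3.89, 3.75, 3.34, 4.71 and 3.43 in 6 week sham and 2.55, 5.67, 3.74, 4.29 and 4.26 in 6 week smoke. In 12 week sham it read 2.94, 1.05, 2.93, 0.98 and 3.28, and in 12 week smoke 1.67, 0.067, 4.36 and 4.22. Its within-group SD of 1.13 exceeded that of 99.8% of all probes tested. The change was 0.27 at both durations (SE 0.67 and 0.71). Sult1d1, which sulfates catecholamines and other phenols, ranged from 0.42 to 3.47, with an SD of 0.92, and differed by 0.63 at 6 weeks (SE 0.46, adjusted p = 0.774) and -0.06 at 12 weeks.

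Sult5a1 and Sult4a1 had the largest 12 week values of the family. Sult5a1 differed by 0.44 (SE 0.19, adjusted p = 0.44) and Sult4a1, a brain-type member, by 0.44 (SE 0.22, adjusted p = 0.569), the latter with 1 array at 1.67. With each array left out in turn, the Sult4a1 change ran from 0.067 to 0.67. Sult6b1 gave 0.27 (SE 0.24). At 6 weeks Sult1c2 gave -0.40 (SE 0.23, adjusted p = 0.695), and -0.16 without 6 week sham replicate 1. Sult1e1, the estrogen sulfotransferase, gave 0.28 at 6 weeks (SE 0.20, adjusted p = 0.77). Sult2a8, a bile acid sulfotransferase of liver, gave -0.71 at 6 weeks (SE 0.37, adjusted p = 0.624), and -0.00065 without 6 week sham replicate 1, which read 3.95 against 0.37 to 0.91 in the other 4 sham mice.

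**Figure D5:**
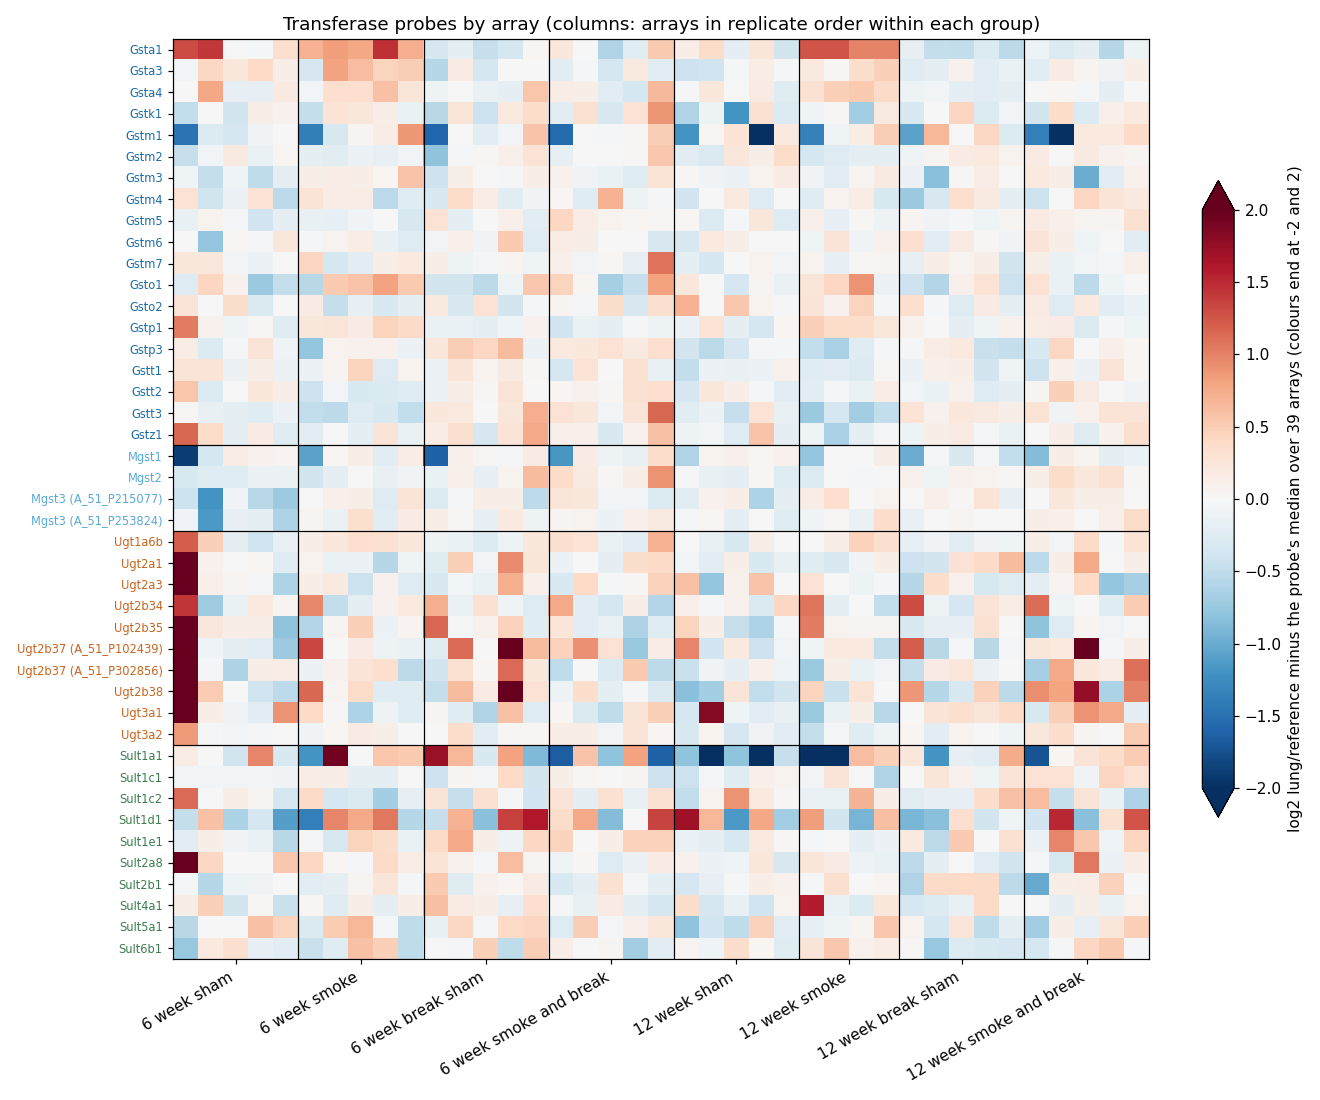
Heat map of the 43 member probes (rows, by family) in the 39 arrays (columns, by group), coloured by log2 ratio minus the probe's own median, with colours ending at -2 and 2. The first column, 6 week sham replicate 1, is high in all 10 Ugt rows, and Sult1a1 and Sult1d1 vary between mice of the same group.

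After the 6 week break no member passed the test between smoke-exposed and sham mice. In 6 week smoke and break against 6 week break sham, and in 12 week smoke and break against 12 week break sham, 0 of the 43 probes were called by limma, as for all probes (0% in both comparisons), and 0 of the 43 reached an unadjusted p under 0.05, where 4.32% and 6.43% of all probes did. The count was also 0 in every alternative fit made. The family medians were 0.087 and 0.045 for cytosolic and 0.11 and 0.16 for microsomal glutathione transferases, -0.18 and 0.17 for glucuronosyltransferases, and -0.17 and 0.14 for sulfotransferases, at 6 and 12 weeks. The widest intervals among these families were again those of the glucuronosyltransferases, with a median half-width of 0.73 at both durations.

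Gsta1 read 0.32, 0.0039, -0.013, 0.21 and -0.041 in 12 week break sham and 0.38, 0.21, 0.29, -0.085 and 0.38 in 12 week smoke and break. The groups overlapped, and the difference was 0.14 (SE 0.18, 95% confidence interval -0.23 to 0.50, adjusted p = 0.925). In 6 week break sham it read 0.15, 0.30, 0.023, 0.13 and 0.52, and in 6 week smoke and break 0.69, 0.48, -0.12, 0.27 and 1.0, a difference of 0.24 (SE 0.18, adjusted p = 0.999). The smoke effect at 12 weeks exceeded the effect that remained after the break by 1.01 (SE 0.26), with an adjusted p of 0.186, and 0.0683% of all probes were called in that comparison. Averaged over durations it exceeded it by 0.56 (SE 0.18, adjusted p = 0.241, with 0.125% of all probes called), and with 6 week sham replicates 1 and 2 both left out by 0.77 (limma adjusted p = 0.00397). That removal was chosen after the values were seen and took out the 2 highest Gsta1 values of 6 week sham, so it is not an independent test. Mgst3 (A_51_P215077) gave 0.14 and 0.048 after the break. It read -0.11, 0.13, 0.29, 0.27 and -0.37 in 6 week break sham and 0.40, 0.38, 0.11, 0.11 and -0.11 in 6 week smoke and break. In 12 week break sham it read 0.16, 0.26, 0.18, 0.43 and -0.0052, and in 12 week smoke and break 0.17, 0.38, 0.28, 0.28 and 0.15, so that these groups overlapped at both durations. Ugt1a6b was the one member with no overlap after a break (0.467% of all probes were higher in this way), with 12 week break sham at -0.72 to -0.58 against -0.57 to -0.13 in the smoke and break mice, a difference of 0.25 (SE 0.18, adjusted p = 0.85).

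Some members differed between the sham groups themselves. Averaged over durations, break sham differed from sham in 3 of the 43 probes, against 0.911% of all probes. Gsta1 was lower after the break by 0.62 on the log2 scale (difference -0.62, SE 0.13, limma adjusted p = 0.0105). Gstt3 was higher by 0.39 (SE 0.09, 1.31-fold, limma adjusted p = 0.0276), and Mgst3 probe A_51_P215077 by 0.29 (SE 0.074, limma adjusted p = 0.0495). The other Mgst3 probe, A_51_P253824, was higher by 0.25 and did not pass (limma adjusted p = 0.241). At 6 weeks alone, Gsta1 in break sham was at 0.569 times its sham level (difference -0.81, SE 0.18, limma adjusted p = 0.0358), against 0.29% of all probes called. That call was lost without 6 week sham replicates 1 or 2 (-0.63 and -0.67, adjusted p = 0.151 and 0.135), without both (-0.39, adjusted p = 0.432) and without any 1 of the 5 break sham mice (-0.86 to -0.75, adjusted p = 0.058 to 0.14). Without both sham arrays the averaged Gsta1 difference was -0.41 (limma adjusted p = 0.046) and that of Gstt3 was 0.40 (limma adjusted p = 0.0422). That of Mgst3 probe A_51_P215077 was 0.25 (limma adjusted p = 0.127). For this Mgst3 probe the adjusted p was above 0.05 without 30 of the 39 arrays in turn, with differences of 0.25 to 0.33. No member was called at 12 weeks alone, against 0.0228% of all probes.

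For Gstt3 the break sham mice read 1.44, 1.42, 1.23, 1.45 and 1.96 at 6 weeks and 1.50, 1.31, 1.44, 1.41 and 1.34 at 12 weeks. The smoke and break mice read 1.52, 1.45, 1.17, 1.49 and 2.38, and 1.51, 1.16, 1.31, 1.50 and 1.49. With and without earlier smoke, the break groups overlapped, and the fitted differences were 0.10 (95% confidence interval -0.16 to 0.36) and -0.005 (-0.26 to 0.25). Without 6 week sham replicate 2 the Gstt3 difference between sham groups was 0.36 (adjusted p = 0.056). It likewise missed the threshold without 6 week break sham replicate 5, 12 week sham replicates 3 or 5, or 12 week break sham replicates 1 or 4, at 0.35 to 0.38. Break sham mice were older and had gone 6 weeks since their last session, and age and time since restraint cannot be told apart.

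Lymphocyte and alveolar macrophage markers also stood higher in break sham than in sham at the median. So did endothelial markers (2.48 and 2.64 at 6 weeks, 2.21 and 2.43 at 12 weeks) and ciliated cell markers (1.98 and 2.09, 1.72 and 1.97). The hepatocyte genes did as well (0.61 and 1.32, 0.34 and 0.38), so the shift was not particular to immune cells. Not every marker set did so at both durations. Type II cell markers had medians of 3.31 in 6 week sham and 3.58 in 6 week break sham, but 3.15 and 2.94 at 12 weeks. The mean log2 ratio of 4 lymphocyte markers had medians of 0.21 in 6 week sham (-0.16 to 0.30) and 0.64 in 6 week break sham (-0.052 to 1.08), and of 0.027 (-0.29 to 0.29) and 0.50 (0.19 to 0.63) at 12 weeks. For 6 alveolar macrophage markers the medians were 1.42 and 1.83 at 6 weeks and 1.18 and 1.74 at 12 weeks, with overlapping groups. Averaged over durations 0 of the 4 and 0 of the 6 were called by limma. Their part in the Gsta1, Gstt3 and Mgst3 differences was not tested.

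The smoke comparisons also carried a shift in macrophage genes. The mean of 6 alveolar macrophage markers measured on the arrays was 1.22 to 1.87 in 6 week sham, with 6 week smoke at 1.93 to 2.88. At 12 weeks the sham mice had 0.94 to 1.87 and the smoke mice 1.76 to 2.28. Over both durations 3 of the 6 rose, Chil3 by 1.52, Marco by 0.75 and Itgax by 0.54 (limma adjusted p = 0.0152, 0.0251 and 0.00725), where 1.22% of all probes were called. The median of all 6 was 0.61. Chil3, under the name Chi3l3, is in the study's own list of genes changed by smoke in these mice. Of the 6 club cell markers, which mark the airway cells rich in phase I and II enzymes, 0 were called. Their mean ran from 3.03 to 4.77 in 6 week sham (median 4.16) and from 3.08 to 5.57 in 6 week smoke (median 4.89), and from 2.15 to 4.56 in 12 week sham (median 4.39) and 2.74 to 4.82 in 12 week smoke (median 4.45). Among 7 fibroblast and smooth muscle markers, 2 were called lower at 12 weeks and 2 in the mean of both durations, against 0.433% and 1.22% of all probes called. The medians of the 7 were -0.23 and -0.13. The part of these cells in the Gsta1 and Mgst3 values was not tested.

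Of 9 probes for genes that supply glutathione, the substrate of the transferases, 3 rose at 12 weeks, where 0.433% of all probes were called. All 3 are in the study's own list of genes changed by smoke in these mice, so their share called cannot be set against that of other lists. Gclc and Gclm, the catalytic and modifier subunits of glutamate-cysteine ligase, rose by 2.06 (SE 0.31, 4.17-fold, limma adjusted p = 0.000346) and by 1.06 (2.08-fold, limma adjusted p = 0.00106). Gsr, the reductase that restores glutathione, rose by 0.73 (1.66-fold, limma adjusted p = 0.00198). At 6 weeks none of the 9 was called, with Gclc at 1.04 (adjusted p = 0.278) and Gclm at 0.71 (adjusted p = 0.119). The medians of the 9 were 0.35 at 6 weeks and 0.29 at 12 weeks, and after the break 0 were called. The difference between these genes and the transferases was not tested.

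No gene that supplies the donors of the other reactions passed. Of 6 probes for UDP-glucuronate supply none was called, with medians of -0.093 and -0.12, Ugdh, which makes UDP-glucuronate, at 0.29 (adjusted p = 0.391) at 12 weeks and Ugp2 at -0.22 (adjusted p = 0.444) at 6 weeks. Of 10 probes for the sulfate donor none was called, with medians of 0.005 and -0.015, and the PAPS transporter Slc35b2 was at -0.27 (adjusted p = 0.174) at 12 weeks. Among 12 probes for glutathione transferase relatives outside the symbol rule, Ltc4s, the leukotriene C4 synthase of the microsomal family, rose by 0.90 at 6 weeks (SE 0.18, 1.87-fold, limma adjusted p = 0.0369) and differed by 0.54 at 12 weeks (adjusted p = 0.297). At 6 weeks 0.0626% of all probes were called, and Ltc4s too is in the study's own list of changed genes. Hpgds, the sigma-class prostaglandin D synthase, was at -0.41 (adjusted p = 0.68) at 6 weeks.

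None of 12 probes for other conjugating enzymes and none of 16 for export and later steps was called at either duration. Medians were -0.16 and -0.041 for the first list and -0.044 and -0.048 for the second. Tpmt, which methylates thiopurines, was at -0.57 at 6 weeks (adjusted p = 0.487) and Abcc5, a conjugate exporter, at 0.34 at 12 weeks (adjusted p = 0.285). Of 8 genes known to respond to AhR or Nrf2, 5 were called at 6 weeks and 8 at 12 weeks, all higher. Among them was the quinone reductase Nqo1 at 1.18 and 1.96. Most of these 8 are in the study's own list of genes changed by smoke in these mice. They serve as a check on the arrays, and their share called cannot be set against the other lists. After the break 0 of these 8 were called.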

How the data were processed

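Lung RNA of 39 mice was measured, 1 mouse per array, grouped by the sample labels. The authors labelled lung cRNA with Cy5 and universal mouse reference cRNA with Cy3, all in one orientation, and read the scanned images with ImaGene. Intensity values in the deposited scanner files are given for each spot and its surround in both dyes, without normalization. The authors also deposited log2 ratios after global LOWESS, used here as an alternative; they correlated at 0.975 to 0.996 per array with the values used.

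From spot and background medians, normexp correction (offset 50), loess within each array and the mean over repeated spots gave 1 log2 ratio per probe in every array. Probes were kept whose Cy5 signal exceeded the trimmed mean plus 3 trimmed SD of 162 negative control spots (5% trimmed at each end) in at least 4 arrays of 1 group, which left 17560 of 20868 probes. Probe symbols came from the platform annotation: 18235 probes had 1 symbol, 30 several and 2603 none. Arrays differ in brightness, from 48.4% to 94.6% of probes above the controls, and dim arrays limit the precision. All arrays entered 1 limma model with 8 groups and 5 label runs as a fixed block (R 4.3.3, limma 3.58.1, statmod 1.5.0, matplotlib 3.10.9), with Benjamini-Hochberg adjustment over the kept probes and a threshold of 0.05. Label runs follow the exposure dates in the labels and need not be the hybridization batches. The method was tested on simulated data.

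Members and gene lists were chosen with earlier results of these data known. Named with every array were members past the threshold in any comparison and Gstt2, and in short the 4 members of each family with the largest smoke changes; values of other members are given as context and were chosen after they were seen. Alternatives covered background correction, normalization, spot means, marked spots, filters, the block, array weights, the groups fitted and each array left out.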

Additional observations from a re-analysis of the deposited data

Results flagged for a closer look

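For 23 member probes, the 8 groups were searched for a single mouse far from the others of its group, taking the gap between the extreme array and its nearest neighbour as a share of the group's whole range. Of 184 groups checked, 18 (9.78%) exceeded Dixon's 95% critical value, and 5 of the 18 were 6 week sham replicate 1. Chance flags about 1 in 20 groups, but the probes were taken for their smoke changes, some of which rest on that array, so the share cannot be set against it. Gstm1, at the scanner limit throughout some groups, was left out.

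In that array the gap was 0.848 of the range for Sult2a8 (value 3.95), 0.847 for Ugt2a3 (4.30), 0.795 for Ugt2b35 (4.39), 0.785 for Ugt2b38 (4.93) and 0.756 for Mgst1 (0.53). The Ugt and Sult values were the highest of all 39 arrays, and the hepatocyte genes were high in the same array.

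Other arrays of label run 1 stood apart for Mgst1, at 0.912 in 12 week sham replicate 1 (1.81), 0.863 in 12 week smoke replicate 1 (1.63) and 0.897 in 6 week break sham replicate 1 (0.80). Mgst1 was at the scanner limit in all 8 arrays of that run. In the same run were Gsto1 in 6 week smoke replicate 1, at 0.795 (-0.93), Sult1a1 in 12 week smoke and break replicate 1, at 0.794 (2.01), and, in 12 week smoke replicate 1, Mgst2 at 0.905 (-1.09) and Ugt2b35 at 0.976 (1.24).

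The other 6 were Gsta1 in 6 week smoke replicate 4, at 0.813 (1.94), Gsta4 in 6 week break sham replicate 5, at 0.718 (0.38), Gstt3 in 6 week smoke and break replicate 5, at 0.716 (2.38), Gstm3 in 12 week break sham replicate 2, at 0.731 (0.95), and in 6 week smoke replicate 5, at 0.776 (2.36), and Ugt3a1 in 12 week sham replicate 2, at 0.881 (1.94).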

How the results depend on the processing

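The counts of members called rested on few probes. At 6 weeks the count of 1 became 0 without the run block, with the run as a random block, with array weights, with only the 2 groups fitted and without label run 1, and 3 with marked spots left out, where Ugt2b38 and Ugt2b37 were called on 5 and 3 arrays. Leaving out each array in turn gave 0 to 1, with 0 without 6 week sham replicates 1 or 4 or 6 week smoke replicates 1, 3, 4 or 5. At 12 weeks the count of 1 became 2 with array weights and 0 with only the 2 groups fitted, where Gsta1 had an adjusted p of 0.051, and it was 1 without any single array. In the mean of both durations the count of 2 became 6 with array weights, 0 with only these groups fitted, 5 with 6 week sham replicates 1 and 2 both left out and 1 without label run 1. Leaving out each array gave 2 to 4, with 4 without 6 week smoke replicate 1 and without 6 week smoke and break replicate 5. The smoke effect minus the break effect had 1 call with array weights and 1 with both sham arrays out. Break sham minus sham had 1 with median centring, 0 without the run block, 1 with a random block, 0 with only these groups fitted, 0 without label run 1 and 1 to 3 without each array. Over all probes the calls ran from 0 to 37 at 6 weeks (11 as reported), from 11 to 203 at 12 weeks (76), from 45 to 409 in the mean (214) and from 47 to 223 for break sham minus sham (160). For the smoke effect minus the break effect they ran from 0.0626% to 0.769% of the probes (0.125% as reported). Leaving out both sham arrays and label run 1 were chosen after seeing the data. With array weights 5 probes, no member among them, were called in 6 week smoke and break.

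Of 2474 values of 46 results, 2352 kept their direction and their side of the threshold, 86 no longer passed, 14 came to pass and 22 changed sign. With both 6 week sham arrays out the 6 week value was 0.11 for Ugt2b35, 0.14 for Ugt2a3, 0.52 for Ugt2b38, 0.033 for Sult2a8 and -0.10 for Mgst1. Without label run 1 it was 0.15 for Ugt2b35, 0.0088 for Ugt2a3 and 0.076 for Ugt2b38. Leaving out marked spots gave -0.39 for Sult1d1 at 6 weeks and, at 12 weeks, -0.26 for Sult4a1 and -1.17 for Sult1a1. At 12 weeks spot means gave -0.013 for Sult4a1 and median centring -0.048 for Mgst2. Leaving out each array gave, at 6 weeks, -0.0051 to 0.26 for Mgst1, -1.11 to 0.070 for Ugt2a3 and -0.95 to 0.28 for Ugt2b38, and, at 12 weeks, -0.10 to 0.038 for Gstt2, -0.16 to 0.044 for Mgst1 and -0.37 to 1.12 for Sult1a1. Mgst1 was at the scanner limit in 9 arrays, so the sign of its small changes is not informative. Changes of Gstm1 were not examined, since its values are bounds. The causes were not tested. No paired analysis was possible because the replicate numbers follow accession and pair no mice.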

Other observations

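The sham groups of the 2 durations were also set against each other. In 12 week sham against 6 week sham, 0 of the 43 member probes were called by limma, as for all probes (0%), and 12 of the 43 had an unadjusted p under 0.05, where 6.86% of all probes did. Of these 12, 9 were lower in the older mice. All 10 glucuronosyltransferase probes were lower, with a median of -0.54, and that comparison includes 6 week sham replicate 1, the array with the highest value of each of them.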
